A study of Homo sapiens with 96 samples.

Results

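KLK2, KLK3, KLK4 and TMPRSS2 are serine protease genes of the prostate epithelium. Every probe of these 4 symbols in the platform annotation was taken, with the brightest probe to stand for a gene. Each gene had exactly 1 annotated probe, so there was nothing to choose between, and all 4 were among the 18571 genes tested. KLK3 encodes prostate-specific antigen, the secreted kallikrein that liquefies the seminal clot and serves as a blood marker of prostate disease. KLK2 encodes human kallikrein 2, a close paralog with trypsin-like cleavage, and KLK4 encodes a further secreted kallikrein known from tooth enamel and prostate. TMPRSS2 encodes a transmembrane protease that is also the 5′ partner of the common gene fusion of prostate cancer with ERG. In prostate cells the androgen receptor, once bound by hormone, attaches to DNA near such genes and raises their transcription, which is why they serve as readouts of receptor activity. An antagonist that occupies the receptor is known to block that rise.

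The study used LAPC4 cells, an established prostate cancer line of human origin with an androgen receptor, and asked which chemicals modulate that receptor. Cells were exposed for 6 h to 0.05% DMSO (the vehicle), to 0.33 nM R1881, a synthetic androgen, or to the same dose of R1881 together with 1 of 28 chemicals. Transcripts were measured on 96 Illumina bead arrays, 6 for DMSO, 6 for R1881 alone and 3 for each chemical, and the values are log2 intensities. Trenbolone, Testosterone_propionate, Norethindrone, MethylTestosterone and Dihydrotestosterone were given at 0.5 uM, Triticonazole, Progesterone, Mifepristone, Dexamethasone and Androstenedione at 10 uM, and the remaining 18 chemicals at 20 uM. All chemical groups thus hold R1881, no chemical was given alone, and all 28 comparisons share the same 6 arrays of R1881. The design text speaks of 3 experiments on separate days. The labels do not say which array comes from which day, nor how arrays 1b to 3b of the controls relate to 1 to 3. The 6 same-numbered pairs of control arrays correlated at r = 0.9705 to 0.9977, against 0.3084 to 0.9977 over all 114 pairs within groups. The fits count the arrays of such a pair as independent, which was not tested. The p-values measure the spread between these arrays, which may be partly technical.

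The genes lie in 2 places of the genome. In the GRCh38.p14 annotation, KLK3 (chromosome 19, 50854915 to 50860764), KLK2 (50873439 to 50880567) and KLK4 (50906351 to 50911395) stand side by side in the kallikrein cluster, the former pair on the plus strand and KLK4 on the minus strand. TMPRSS2 lies on chromosome 21 (41464305 to 41508158). The reference promoters of the kallikreins are shown to identify the regions before the starts of these genes, and how far they resemble each other. They are RefSeq sequences from 250 bases before to 50 bases after a start. KLK4 has 2 annotated starts, and its outer start is shown. Capitals mark the closest match to the androgen receptor's 15-letter palindrome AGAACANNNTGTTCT where it has at most 3 mismatches among its 12 fixed letters.
KLK3 chr19:50854665-50854964 plus strand: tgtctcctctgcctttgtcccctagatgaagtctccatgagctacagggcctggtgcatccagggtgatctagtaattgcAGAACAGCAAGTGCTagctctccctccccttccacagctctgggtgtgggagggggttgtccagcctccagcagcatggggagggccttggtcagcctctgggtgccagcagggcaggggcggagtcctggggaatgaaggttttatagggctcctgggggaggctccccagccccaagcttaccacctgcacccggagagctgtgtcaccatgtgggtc
KLK2 chr19:50873189-50873488 plus strand: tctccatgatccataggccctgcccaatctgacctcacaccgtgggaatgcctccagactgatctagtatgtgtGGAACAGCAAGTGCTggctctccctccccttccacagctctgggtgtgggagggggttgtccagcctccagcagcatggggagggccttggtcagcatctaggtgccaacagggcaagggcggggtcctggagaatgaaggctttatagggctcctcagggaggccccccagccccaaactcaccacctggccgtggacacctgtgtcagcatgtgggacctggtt
KLK4 chr19:50911346-50911645 minus strand: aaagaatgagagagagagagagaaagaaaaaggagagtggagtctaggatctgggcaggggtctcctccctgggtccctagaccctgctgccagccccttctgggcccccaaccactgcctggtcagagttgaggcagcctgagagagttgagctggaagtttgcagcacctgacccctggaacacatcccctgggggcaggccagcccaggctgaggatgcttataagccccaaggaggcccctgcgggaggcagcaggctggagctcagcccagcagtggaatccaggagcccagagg

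The KLK3 and KLK2 windows were identical at 245 of 307 aligned positions (79.8%), whereas KLK3 and the KLK4 window shared 49.8%. The KLK3 match, from -170 to -156 relative to the start, departed from the palindrome by T10A and T13G, counted from its 5′ end. The KLK2 match, from -176 to -162, carried A1G as well. Neither KLK4 window had a match within 3 mismatches. Of all 35116 windows of the table, searched in the same way, 1.41% held a match with at most 2 mismatches and 10.8% with at most 3. The 6-letter element AGAACA, on either strand, was present in the KLK3 window, absent from the KLK2 and KLK4 windows, and found in 14.8% of all windows, where it can overlap the palindrome. A match is only a resemblance in letters. The probe of KLK3 is annotated to a single transcript variant of the gene, and since KLK2 and KLK3 are so alike, cross-hybridization between their probes was not tested.

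Before the comparisons, it has to be said that the arrays differed in ways the groups do not describe. The 96 arrays were divided into 2 profiles, a number set beforehand, along a leading principal component of the 2000 most variable genes. That component was computed without the 6 arrays named below, which were then placed on it. Profile A had 34 arrays and profile B 62. Of the 34 arrays in profile A, 11 bore the number 1, 0 the number 2 and 23 the number 3. Profile A held 2 of the R1881 and 2 of the DMSO arrays, in each case arrays 3 and 3b, and profile B held 4 of each. The spread between controls within profile A is thus that of same-numbered arrays alone, which may be partly technical. Within profile B, 6 arrays were set aside as standing apart, namely Trenbolone 2, Spironolactone 2, Flutamide 3, Testosterone_propionate 2, MethylTestosterone 2 and Apigenin 2. They are a fixed list without a stated cut-off, and the marker means below do not set each of them apart. The mean log2 value of 8 luminal epithelial markers, whose median percentiles on the arrays were 81.3 to 99.5, was 9.66 to 10.50 in the other 90 arrays. It was 7.34, 7.60, 9.12, 9.22, 10.07 and 9.46 in the 6, in the order given. The 4 immune markers were dimmer, with median percentiles of 28.1 to 73.7. Their means were 6.72 to 7.46 in the 90 arrays and 6.95, 7.58, 7.20, 6.61, 6.61 and 7.24 in the 6. Results are therefore given for all arrays and for a reduced fit without the 6 arrays, which leaves those 6 chemicals with 2 arrays each, and with the profile as a block, and their part in any single result was not tested beyond that.

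R1881 raised the transcripts of KLK2 and KLK4. KLK2 ranged over the 6 DMSO arrays from 6.80 through a median of 6.90 to 7.37, and over the 6 R1881 arrays from 7.89 through 8.19 to 8.69. The group means were 6.99 ± 0.22 and 8.22 ± 0.31 (SD over 6 arrays), so KLK2 was 2.33-fold higher under R1881, a log2 difference of 1.22 (SE 0.23, limma, adjusted p = 0.00154). KLK4 lay between 9.48 and 10.43 with a median of 9.79 in DMSO, and between 10.69 and 11.24 with a median of 11.13 in R1881. With means of 9.87 ± 0.36 and 11.03 ± 0.22, KLK4 was 2.23-fold higher, a log2 difference of 1.16 (SE 0.22, limma, adjusted p = 0.00233). For both genes every R1881 array lay above every DMSO array. The DMSO mean of KLK2 lay close to the array medians of 6.72, and how far background limits such low KLK2 readings was not tested.

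TMPRSS2 moved the same way without passing the test over all arrays. Its DMSO arrays spanned 10.15 to 10.67 with a median of 10.41, and its R1881 arrays 10.95 to 11.75 with a median of 11.28, so these groups did not overlap either. The difference was 0.95 (SE 0.24, limma, adjusted p = 0.135), and in the reduced fit, with the same difference, the SE was 0.14 and the adjusted p = 2.52e-06. There, KLK2 and KLK4 had adjusted p = 2.65e-06 and 3.57e-07. Over all genes 0.118% were called higher under R1881, 0.738% in the reduced fit, and 0.528% had every R1881 array above every DMSO array, against 2, 3 and 3 of the 4 proteases. Leaving out any 1 of the 12 control arrays kept the count at 2. Control sets of 3 arrays a side were arrays 1 to 3, arrays 1b to 3b, or same-numbered arrays averaged. With these the increase of KLK2 was 1.22 to 1.23 and that of KLK4 1.09 to 1.22, but the count was 0. With same-numbered arrays averaged, the adjusted p was 0.713 for KLK2 and 0.813 for KLK4 (limma). Within profile A, on controls that were arrays 3 and 3b alone, 2.19% of genes were called higher. The increase there was 1.00 for KLK2, 1.50 for KLK4 and 0.64 for TMPRSS2 (limma, adjusted p = 0.000161, 0.00034 and 0.00846). Within profile B, where 0.199% of genes were called higher, it was 1.33, 0.99 and 1.10 (limma, adjusted p = 0.0273, 0.00168 and 0.014). In a test of the interaction none of the 4 genes passed (limma, adjusted p = 1 for each). The response in profile B minus that in profile A was 0.34 (SE 0.25) for KLK2, -0.52 (SE 0.29) for KLK4 and 0.46 (SE 0.24) for TMPRSS2. The unadjusted p was 0.202, 0.0975 and 0.0878 (limma). With 12 control arrays and adjustment over 18552 genes, the test could not show that the responses were equal.

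**Figure D1:**
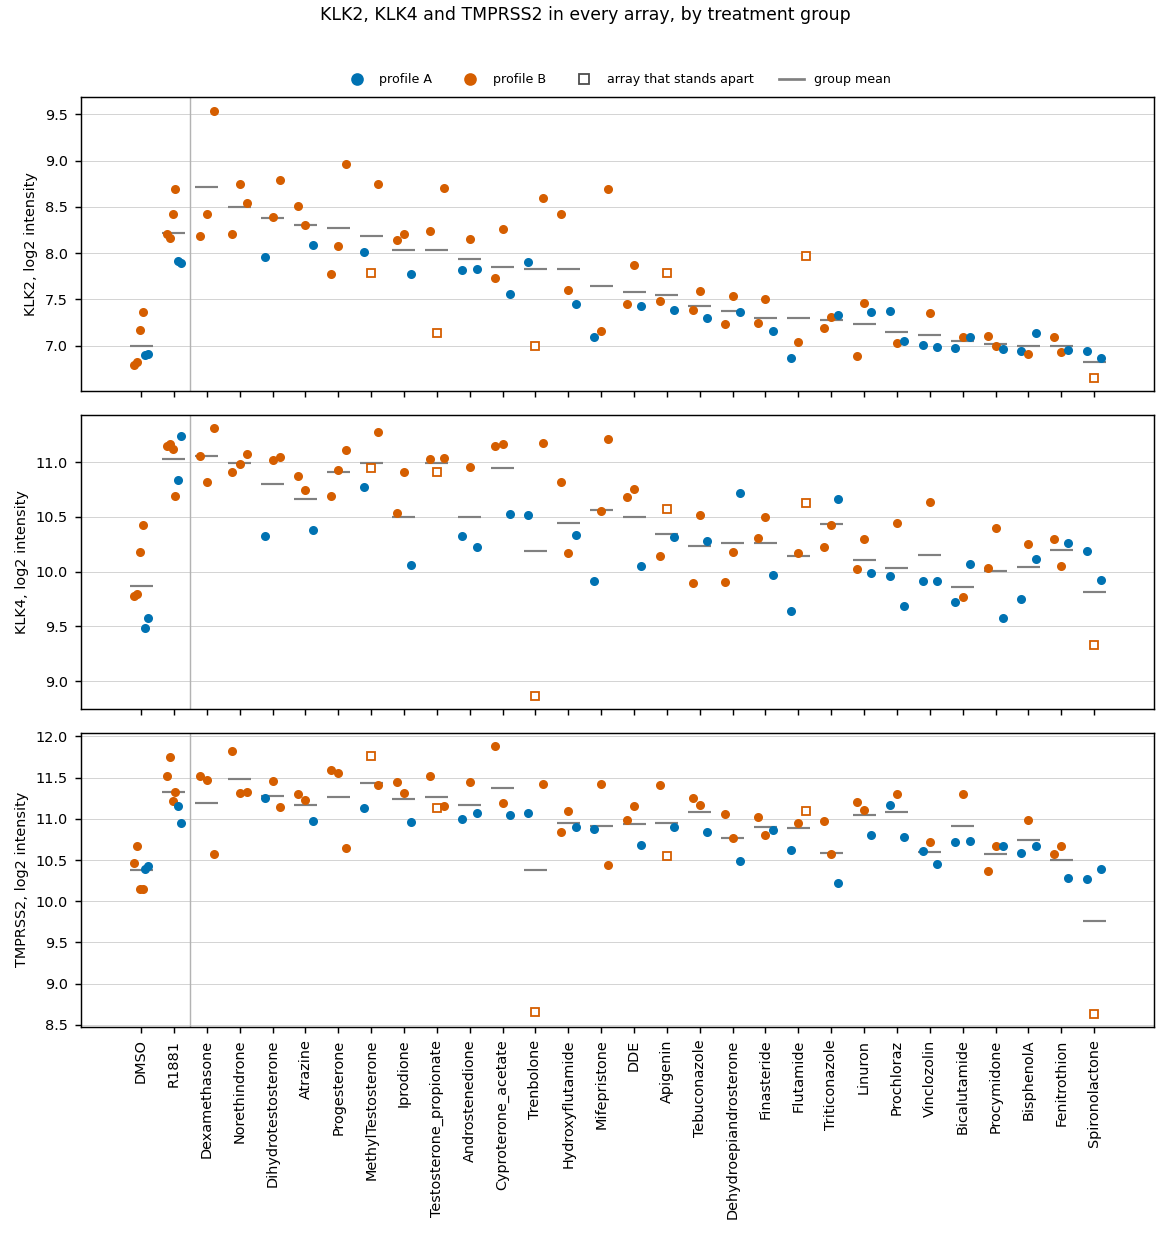
Log2 intensity of KLK2, KLK4 and TMPRSS2 (vertical axes) in each of the 96 arrays, by treatment group (horizontal axis, DMSO and R1881, then the chemicals by falling KLK2 mean). Points are arrays coloured by profile, open squares the 6 arrays that stand apart and grey bars group means. KLK2 falls from a mean of 8.22 under R1881 to about the DMSO mean of 6.99 under the chemicals at the right, and Trenbolone 2 and Spironolactone 2 are the lowest TMPRSS2 points, at 8.66 and 8.64.

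KLK3, the best-known androgen target of the 4, was dim and did not pass the test. Its probe stood at the 59.5th percentile of an array in the median, against 77.4 for KLK2, 96.3 for KLK4 and 97.6 for TMPRSS2, and it lay below the array median in 26 of 96 arrays. It passed the filter on dim probes, which asks for a value above the array median in at least 3 arrays, but not a stricter one at the 75th percentile. DMSO arrays spanned 6.65 to 6.84 with a median of 6.73, and R1881 arrays 6.59 to 7.03 with a median of 6.81, so the groups overlapped. The difference was 0.10 (SE 0.10, 95% interval -0.11 to 0.31, limma, adjusted p = 1), and 0.10 in the reduced fit as well (SE 0.05, adjusted p = 0.931).

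Within profile A, whose controls are arrays 3 and 3b alone, the values lay closer together. Whether those arrays are repeats of the same culture is not given, so their closeness may be technical. There KLK3 read 6.79 and 6.84 in the 2 DMSO arrays and 7.02 and 7.03 in the 2 R1881 arrays, a difference of 0.21 (SE 0.05, limma, adjusted p = 0.0337). In profile B it read 6.65, 6.78, 6.68 and 6.65 in DMSO and 6.73, 6.77, 6.85 and 6.59 in R1881, a difference of 0.04 (adjusted p = 1). The SD of KLK3 within groups was 0.03 in profile A and 0.18 over all arrays, which pool the profiles and include the 6 that stand apart. For KLK2 these values were 0.10 and 0.40, so that gene too was tighter in profile A than over all arrays. The KLK3 response in profile B minus that in profile A was -0.16 (SE 0.11, limma, adjusted p = 1), which likewise does not show equal responses.

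**Figure D2:**
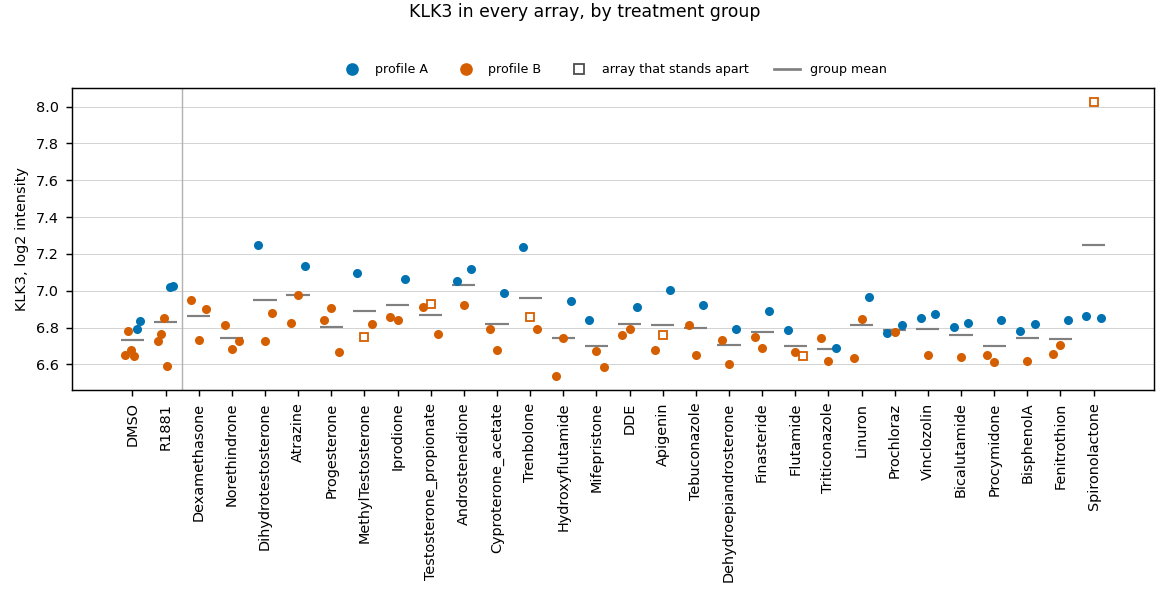
Log2 intensity of KLK3 (vertical axis) in each of the 96 arrays by treatment group (horizontal axis, in the order of falling KLK2 mean), with profile A and B in colours, open squares for the 6 arrays that stand apart and grey bars for means. All points lie between 6.54 and 7.25 except Spironolactone 2, at 8.03.

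Among the 28 chemicals, 9 had both KLK2 and KLK4 called lower than R1881 alone in the reduced fit, and over all arrays 1 gene or more was called lower under Spironolactone and Trenbolone. Over all arrays, limma called 5 of the 112 combinations of gene and chemical lower (KLK2 under Spironolactone, and KLK4 and TMPRSS2 under Spironolactone and Trenbolone) and 1 higher (KLK3 under Spironolactone), where 0.533% and 0.57% of all combinations of gene and chemical were. Every array of the chemical lay below every R1881 array in 31 combinations, 14 for KLK2, 13 for KLK4, 4 for TMPRSS2 and 0 for KLK3, against 1.28% over all genes. Every array lay above in 0, against 0.739%. The reduced fit called 25 lower, 11 for KLK2, 10 for KLK4, 4 for TMPRSS2 and 0 for KLK3, where 0.484% of all combinations were, and 0 higher, where 0.348% were. At an unadjusted p below 0.05 with all arrays, the counts were 16 lower for KLK2, 16 for KLK4, 6 for TMPRSS2 and 0 for KLK3, and 1 higher, for KLK3. Without Spironolactone 2, R1881 1 or R1881 1b the all-array count of 5 lower became 3, and without Trenbolone 2, Testosterone_propionate 2 or Mifepristone 3 it became 8. The single call higher was gone without Spironolactone 2. In bulk RNA such as this, fewer expressing cells and less transcript per cell cannot be told apart.

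**Figure D3:**
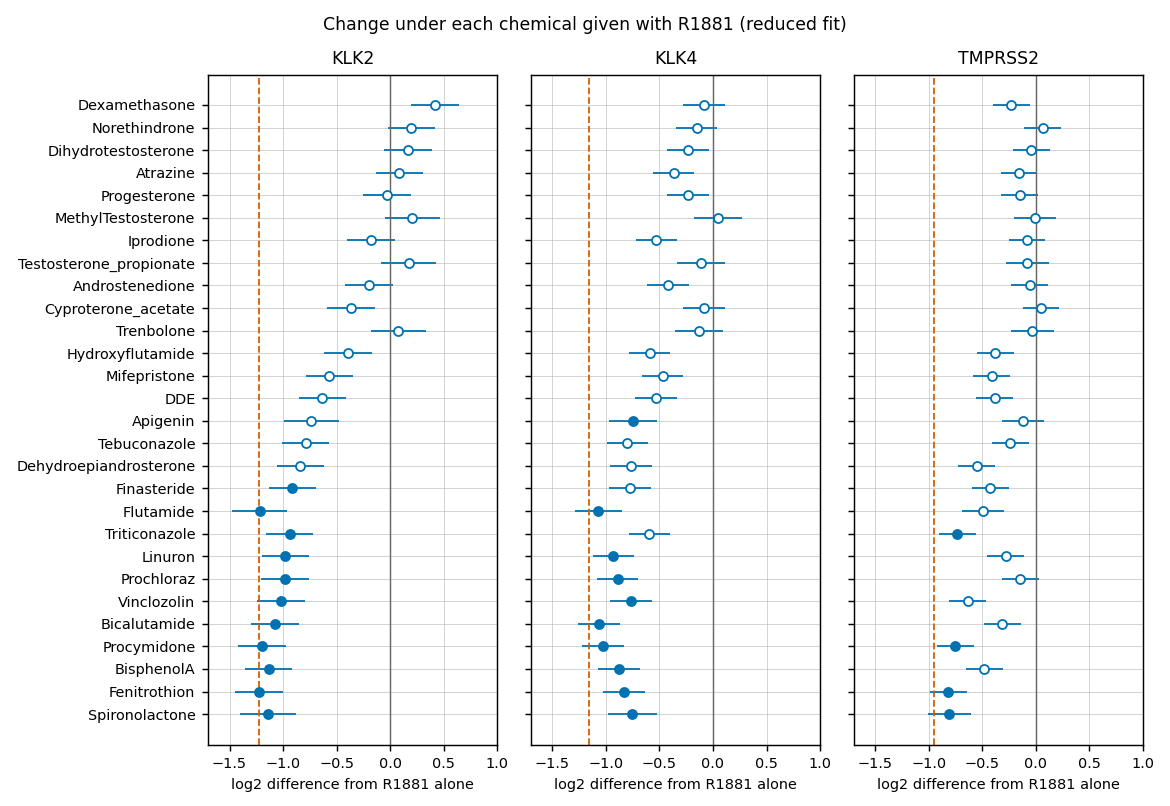
Log2 difference of each chemical given with R1881 from R1881 alone (horizontal axes) in the reduced fit for KLK2, KLK4 and TMPRSS2, with chemicals on the vertical axis by falling KLK2 mean. Bars are SE, filled points passed adjusted p 0.05, and the dashed line marks the level of DMSO. Filled points number 11 for KLK2, 10 for KLK4 and 4 for TMPRSS2.

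Bicalutamide and Flutamide are non-steroidal antagonists of the androgen receptor used against prostate cancer. KLK2 and KLK4 were called lower under each in the reduced fit, but not over all arrays. The all-array adjusted p for KLK2 and KLK4 was 0.114 and 0.0917 under Bicalutamide, and 0.317 and 0.332 under Flutamide (limma). Under Bicalutamide, KLK2 read 6.98, 7.09 and 7.09 and KLK4 read 9.73, 9.77 and 10.07, all within the DMSO range over both profiles. In profile A, KLK2 at 6.98 and 7.09 lay above the DMSO arrays there (6.90 and 6.91). KLK4 at 9.73 and 10.07 did so too (9.48 and 9.58). The profile B array, at 7.09 and 9.77, did not lie above the DMSO arrays of profile B. In the reduced fit KLK2 fell by 1.08 (SE 0.22, adjusted p = 0.00419) and KLK4 fell by 1.06 (SE 0.19, adjusted p = 0.000584). TMPRSS2 stayed higher, at 10.72, 11.31 and 10.73 against 10.15 to 10.67 in DMSO, and its difference from R1881 was -0.31 (adjusted p = 1). Flutamide gave KLK2 values of 6.87, 7.04 and 7.97, the last of them in Flutamide 3, and in the reduced fit, without that array, KLK2 fell by 1.22 and KLK4 fell by 1.07 (adjusted p = 0.00589 and 0.00553). Hydroxyflutamide, the active metabolite of Flutamide, did not pass for any of the genes. Its KLK2 values were spread over 8.43, 7.60 and 7.45.

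The steroidal drugs Spironolactone and Cyproterone_acetate, both known to bind the androgen receptor, were both given at 20 uM. Under Spironolactone, KLK2 read 6.94, 6.65 and 6.87, the lowest mean of the 30 groups at 6.82 ± 0.15 (SD, n = 3), and TMPRSS2 read 10.27, 8.64 and 10.39. The middle value in each belongs to Spironolactone 2, an array in which luminal markers were also low, and 9.88% of all genes were called lower and 7.8% higher in this comparison. Without it, in the reduced fit, KLK2 fell by 1.14, KLK4 fell by 0.75 and TMPRSS2 fell by 0.81 (adjusted p = 0.00146, 0.0228 and 0.00404). The call of KLK3 as higher rested on that array, at 8.03 against 6.86 and 6.85, and the difference changed from 0.42 (adjusted p = 0.0138) to -0.11 (adjusted p = 0.486). Under Cyproterone_acetate KLK2 read 7.73, 8.26 and 7.56, KLK4 11.15, 11.17 and 10.53, and TMPRSS2 11.88, 11.19 and 11.04, each overlapping the R1881 range, and its reduced-fit differences were -0.37 for KLK2, -0.08 for KLK4 and 0.05 for TMPRSS2 (adjusted p = 1 each).

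Several pesticides also had these genes called lower in the reduced fit, while no pesticide had a call over all arrays. Over all arrays, KLK2 had an adjusted p of 0.0659 under Fenitrothion and 0.105 under Procymidone (limma). Fenitrothion, an organophosphate insecticide, gave KLK2 values of 7.09, 6.93 and 6.95, against 7.89 to 8.69 under R1881. In the reduced fit its log2 differences were -1.22 for KLK2, -0.83 for KLK4 and -0.82 for TMPRSS2 (adjusted p = 0.000321, 0.0149 and 0.00351). Procymidone, a dicarboximide fungicide, gave -1.20, -1.03 and -0.75 (adjusted p = 0.000466, 0.000589 and 0.0103), so that Fenitrothion, Procymidone and Spironolactone were the chemicals with all 3 of these genes called lower. Vinclozolin, a fungicide of the same class, gave -1.02 for KLK2 and -0.77 for KLK4 (adjusted p = 0.00769 and 0.0396) and -0.64 for TMPRSS2 (adjusted p = 0.0779). Iprodione, the third dicarboximide, kept KLK2 at 8.14, 8.20 and 7.77 and had no call.

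In the reduced fit, Prochloraz, an imidazole fungicide, and Linuron, a urea herbicide, had KLK2 and KLK4 called lower, with no call for TMPRSS2. No chemical of this paragraph had a call over all arrays. The KLK2 differences were -0.98 for both (adjusted p = 0.0122 and 0.0138), the KLK4 differences -0.89 and -0.93 (adjusted p = 0.00781 and 0.00504), and the TMPRSS2 differences -0.15 and -0.28 (adjusted p = 0.886 and 0.656). BisphenolA, a plastics chemical, showed KLK2 at 6.94, 6.91 and 7.14 and differences of -1.14 for KLK2 and -0.88 for KLK4 (adjusted p = 0.00152 and 0.0079), with -0.48 for TMPRSS2 (adjusted p = 0.404). Triticonazole, at 10 uM, was called lower for KLK2 (-0.94, adjusted p = 0.0342) and TMPRSS2 (-0.73, adjusted p = 0.0324) and missed for KLK4 (-0.59, adjusted p = 0.562). Finasteride, a blocker of the enzyme that makes dihydrotestosterone, was called for KLK2 (-0.91, adjusted p = 0.0434), and the plant flavonoid Apigenin for KLK4 (-0.75, adjusted p = 0.0256). Atrazine, a triazine herbicide, Tebuconazole, a triazole fungicide, and DDE, a breakdown product of DDT, had no call, with KLK2 differences of 0.08, -0.79 and -0.63. For KLK4 the differences under Tebuconazole (-0.80, limma, adjusted p = 0.0709) and Finasteride (-0.77, limma, adjusted p = 0.0604) were no smaller than under Apigenin. The adjustment was made within each comparison, so a call also depends on the other genes under that chemical.

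No agonist steroid had a call in the reduced fit. Dihydrotestosterone, the natural ligand of the receptor, read 7.96, 8.39 and 8.79 for KLK2, and MethylTestosterone, Testosterone_propionate and Norethindrone also overlapped the R1881 range for KLK2, KLK4 and TMPRSS2. Over these 4 steroids the reduced-fit differences ran from 0.16 to 0.21 for KLK2, from -0.23 to 0.05 for KLK4 and from -0.08 to 0.07 for TMPRSS2, and none passed. Trenbolone, an anabolic steroid, was called lower over all arrays for KLK4 (-0.84, adjusted p = 0.0355) and TMPRSS2 (-0.94, adjusted p = 0.0321), where 3.63% of genes were. Its KLK4 values were 10.52, 8.87 and 11.18 and its TMPRSS2 values 11.07, 8.66 and 11.42, each low in Trenbolone 2. In the reduced fit, which leaves that array out, the differences were -0.13 and -0.03 (adjusted p = 1 each).

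The other steroids gave a mixed picture. Dehydroepiandrosterone and Androstenedione are adrenal precursors of androgens. Dehydroepiandrosterone had KLK2 at 7.38 ± 0.15 (SD, n = 3), all below R1881, with a reduced-fit difference of -0.84 (adjusted p = 0.099), and Androstenedione a difference of -0.20 (adjusted p = 0.999). Dexamethasone, a glucocorticoid, had the highest KLK2 mean of all groups at 8.72 ± 0.72 (SD, n = 3), through values of 8.18, 8.43 and 9.54, and did not differ from R1881 beyond that spread (0.42, SE 0.22, adjusted p = 0.449). All Dexamethasone arrays were of profile B, where R1881 also read higher for KLK2 (8.37 against 7.90 in profile A). Progesterone gave a KLK2 difference of -0.03. Mifepristone, an antagonist of the progesterone and glucocorticoid receptors, read 7.09, 7.16 and 8.70 for KLK2 and was not called. Its lower values lay in the DMSO range, and the last lay just above the highest R1881 array (8.69).

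Ordered by group mean, KLK2 ran from 8.72 under Dexamethasone to 6.82 under Spironolactone, KLK4 from 11.06 under Dexamethasone to 9.81 under Spironolactone, and TMPRSS2 from 11.48 under Norethindrone to 9.76 under Spironolactone. KLK3 ran from 7.25 under Spironolactone to 6.68 under Triticonazole. The ranges of neighbouring groups overlapped in all 29 steps for each gene, so the order is a gradient of overlapping groups. Over all arrays R1881 alone stood at place 6 for KLK2, 2 for KLK4, 4 for TMPRSS2 and 10 for KLK3. These places pool the profiles, which groups held in different shares. The R1881 mean of KLK2 was 7.90 in profile A and 8.37 in profile B, and that of TMPRSS2 11.06 and 11.46. Without the 6 arrays, R1881 stood at place 4 of 26 in profile A and 8 of 29 in profile B for KLK2, 1 and 7 for KLK4, 4 and 3 for TMPRSS2, and 7 and 15 for KLK3. The highest KLK2 mean was then that of Atrazine in profile A (8.09) and of MethylTestosterone in profile B (8.75), each on 1 array. The highest KLK4 mean was that of R1881 in profile A (11.04) and of MethylTestosterone in profile B (11.27), and the highest TMPRSS2 mean that of Dihydrotestosterone (11.25) and Cyproterone_acetate (11.54). The lowest KLK4 mean over both profiles passed from Spironolactone to Bicalutamide (9.86) without Spironolactone 2, and the lowest TMPRSS2 mean, still Spironolactone, became 10.33.

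Profile A, with its smaller spread, gave more calls. It held R1881, by arrays 3 and 3b alone, and 24 chemicals. Most chemicals had 1 array, whose spread is assumed to equal that of the groups with more. There KLK2 was called lower in 13 chemicals, KLK4 in 13, TMPRSS2 in 4 and KLK3 in 4 (BisphenolA, Prochloraz, Spironolactone and Triticonazole), where 1.89% of all combinations were. KLK3 was called higher in 1, Dihydrotestosterone (0.23, adjusted p = 0.0315), where 1.69% were, but that rests on 1 array at 7.25. The 2 Dihydrotestosterone arrays of profile B read 6.73 and 6.88, where R1881 spanned 6.59 to 6.85. The KLK3 call for Triticonazole rests on 1 array too. KLK4 lay below both R1881 arrays in all 24 chemicals, KLK2 in 20, KLK3 in 18 and TMPRSS2 in 16, against 34.7% over all genes. All 24 chemicals share these 2 R1881 arrays, whose KLK4 values, 10.84 and 11.24, had the highest mean of 26 groups. Agonist steroids are among the 24, with KLK4 at 10.78 under MethylTestosterone, 10.52 under Trenbolone and 10.33 under Dihydrotestosterone. The KLK4 calls include Dihydrotestosterone, on 1 array (-0.71). Profile B, with 27 chemicals, had 1 call, KLK4 lower under Dehydroepiandrosterone (-0.99, adjusted p = 0.0471), where 0.0548% of combinations were called.

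**Figure D4:**
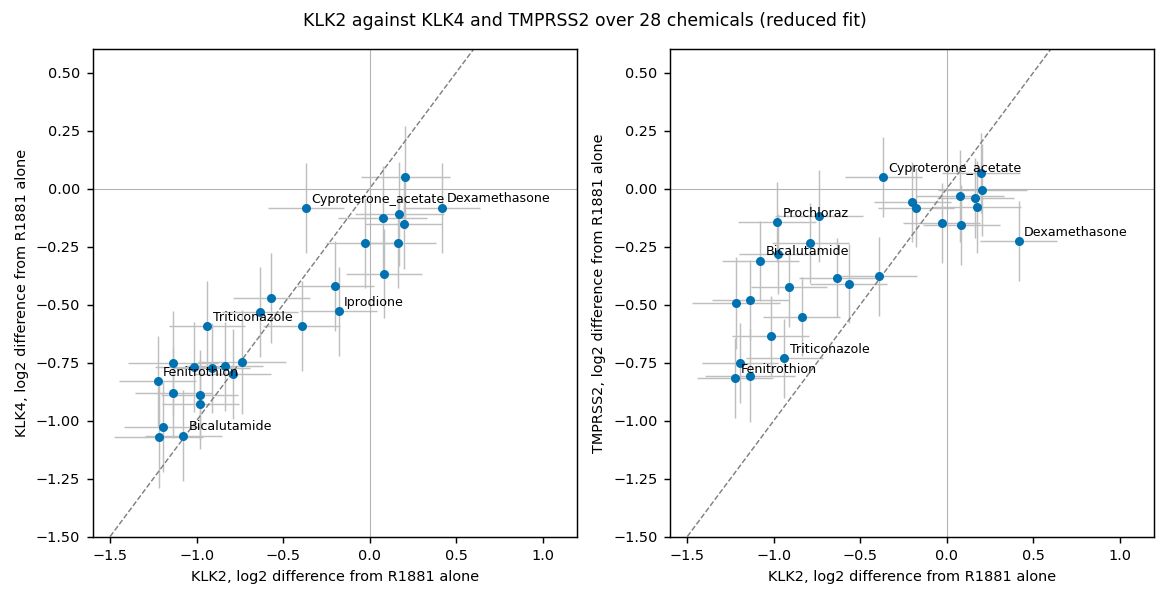
Reduced-fit log2 difference from R1881 alone for KLK4 (left, vertical axis) and TMPRSS2 (right, vertical axis) against that of KLK2 (horizontal axes) over the 28 chemicals, with SE bars. On the dashed line both genes differ equally. For chemicals with low KLK2 such as Bicalutamide (-1.08) and Prochloraz (-0.98), KLK4 is near the line (-1.06 and -0.89) and TMPRSS2 well above it (-0.31 and -0.15).

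Under some chemicals TMPRSS2 lay nearer to its R1881 mean than KLK2 and KLK4 lay to theirs. As a share of the way from the DMSO mean to the R1881 mean on the log2 scale, the level under Bicalutamide was 4.92% ± 5.36 for KLK2, -1.45% ± 16.1 for KLK4 and 57.3% ± 35.4 for TMPRSS2 (SD over 3 arrays, all arrays used). Under Prochloraz the shares were 12.8% ± 15.9, 13.5% ± 33.1 and 74.7% ± 28.7, and under Linuron 19.9% ± 25.1, 19.8% ± 14.9 and 70.3% ± 22.1. Under these chemicals TMPRSS2 remained above every DMSO array, while KLK2 and KLK4 overlapped DMSO. The shares pool the profiles, which chemicals and controls held in different parts. In profile A, Bicalutamide averaged 7.03 for KLK2 (DMSO 6.90, R1881 7.90), 9.90 for KLK4 (9.53 and 11.04) and 10.72 for TMPRSS2 (10.41 and 11.06). Prochloraz averaged 7.21, 9.82 and 10.97 there. Fenitrothion gave -0.177% ± 7.11, 28.4% ± 11.5 and 13.9% ± 21.4, and Triticonazole 23.2% ± 6.27, 48.8% ± 18.9 and 22.8% ± 39.6, so that TMPRSS2 was not the highest under every chemical. The differences between genes were not tested. The DMSO mean was 6.99 for KLK2, close to the array medians of 6.72, against 10.37 for TMPRSS2, so the low KLK2 shares lie nearer to background.

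Related chemicals were compared directly in 14 pairs of equal dose, which makes 56 combinations of gene and pair, with p-values adjusted over all genes and pairs together. The test called 1, TMPRSS2 in Cyproterone_acetate minus Spironolactone (1.61, 95% interval 0.93 to 2.29, limma, adjusted p = 0.0206), where 0.118% of all combinations were called. These steroids share a steroid core and differ in their substituents. The TMPRSS2 values were 11.88, 11.19 and 11.04 against 10.27, 8.64 and 10.39, and without Spironolactone 2, Cyproterone_acetate 1 or Cyproterone_acetate 2 the adjusted p = 0.424, 0.206 and 0.0759. The count over the pairs was 0 in each of these, and 3, 2, 2 and 3 without Spironolactone 1, Spironolactone 3, Trenbolone 2 and Trenbolone 3. In the reduced fit 0 of 56 passed, where 0.283% did, and the TMPRSS2 difference of this pair was 0.86 (adjusted p = 0.086).

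Among the dicarboximides, KLK2 was lower under Procymidone than under Iprodione by a log2 difference of -1.02 (95% interval -1.66 to -0.38, adjusted p = 0.227) and under Vinclozolin than under Iprodione by -0.92 (-1.56 to -0.28, adjusted p = 0.347). No array of the former overlapped Iprodione, yet the comparisons did not pass. Vinclozolin and Procymidone differed by 0.09 (-0.55 to 0.73). Hydroxyflutamide minus Bicalutamide gave 0.77 (0.13 to 1.41, adjusted p = 0.65) for KLK2, and Flutamide minus Hydroxyflutamide, which differ by a hydroxyl group, -0.53 (-1.17 to 0.11, adjusted p = 1). Dihydrotestosterone and MethylTestosterone differed by 0.20 (-0.44 to 0.84) for KLK2, -0.20 (-0.82 to 0.42) for KLK4 and -0.15 (-0.84 to 0.53) for TMPRSS2. Intervals this wide leave room for differences in either direction.

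**Figure D5:**
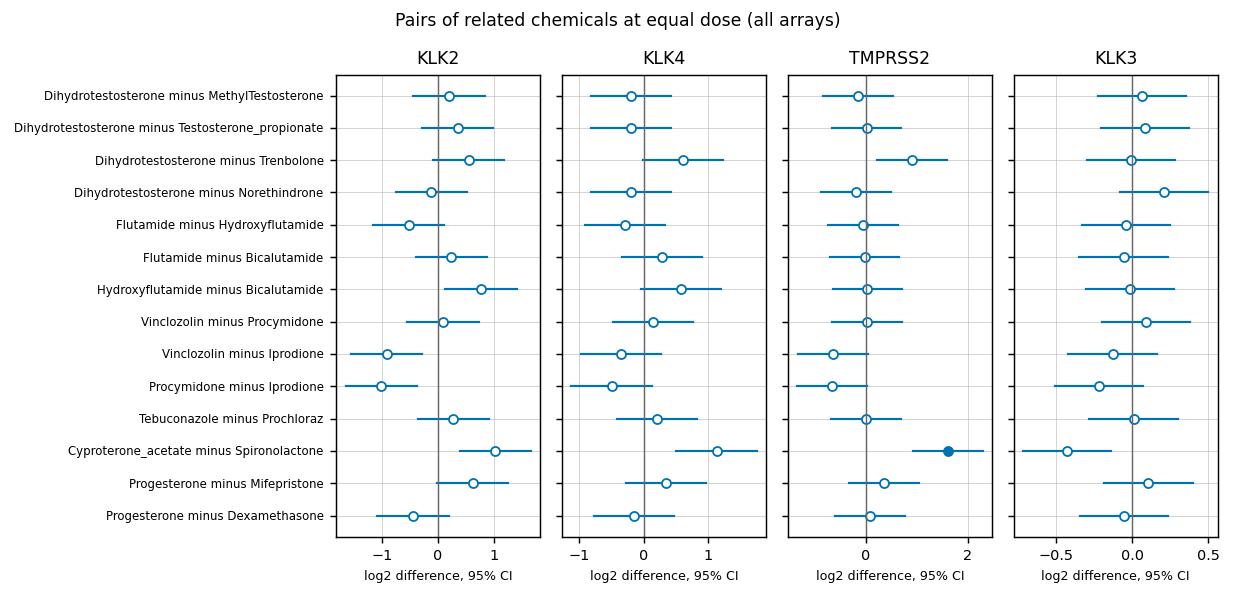
Log2 difference between related chemicals of equal dose (horizontal axes) for KLK2, KLK4, TMPRSS2 and KLK3, over the 14 pairs on the vertical axis, with 95% intervals from all arrays. The filled point is the 1 combination that passed, TMPRSS2 in Cyproterone_acetate minus Spironolactone at 1.61, and the KLK2 intervals of Vinclozolin and Procymidone minus Iprodione lie below 0 without passing the adjustment.

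No gene of 6 related lists passed the test of R1881 against DMSO over all arrays. Of 11 other tissue kallikreins measured, 0 passed in either direction, with a median log2 difference of 0.02 against -0.0035 over all genes tested. By the mean over all 96 arrays, the brightest were KLK11 (6.65 in DMSO and 6.76 in R1881) and KLK14 (6.81 and 6.92), values close to the array medians of 6.72. Among 17 other membrane-bound serine proteases 0 passed. The brightest, PRSS8 (prostasin, 10.67 and 10.72) and ST14 (matriptase, 10.12 and 9.86), differed by 0.05 (SE 0.45) and -0.26 (SE 0.43).

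Of 11 protease inhibitors 0 passed. SPINT2, an inhibitor of membrane-bound proteases, differed by -0.09 (SE 0.25) and SERPINE2, an inhibitor of thrombin-like proteases, by 0.45 (SE 0.32). Among 13 substrates, receptors and seminal proteins 0 passed, with F2R, a thrombin receptor, at -0.12 (SE 0.26) and IGFBP5, a binding protein of insulin-like growth factors, at -0.55 (SE 0.31). In the reduced fit IGFBP5 (adjusted p = 0.0452) and ACP3, the prostatic acid phosphatase (-0.22, adjusted p = 0.0418), were lower. Of 4 fusion partners of TMPRSS2 0 passed (ETV4 -0.10, ETV5 -0.03). Of 7 cofactors of the receptor 0 passed (FOXA1 0.08, HOXB13 -0.04), and the reduced fit called 1, GATA2, a transcription factor that assists the receptor, lower (-0.54, adjusted p = 0.00987). These 3 calls lower are of 63 genes, where 0.248% of all genes were called lower in the reduced fit. ACP3 and GATA2 were named after their values were seen. Under the chemicals the 6 lists held 6 combinations called lower and 12 higher of 1764 (0.34% and 0.68%, against 0.533% and 0.57% over all genes), all under Apigenin, Spironolactone or Trenbolone, and 0 without these.

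The genes most like each protease over the 30 group medians were listed as a description. For KLK2 these were FKBP5 (r = 0.92), SLC45A3 (r = 0.92) and C1orf116 (r = 0.90), and for KLK4 C1orf116 (r = 0.89), PPP3CA-DT (r = 0.89) and ABHD2 (r = 0.86). TMPRSS2 was most like C1orf116 (r = 0.86), KIAA0040 (r = 0.85) and CYTH1 (r = 0.82). KLK3 had weaker neighbours in TNFAIP8 (r = 0.76), PDK4 (r = 0.74) and GATM (r = 0.72). Between the proteases r was 0.86 for KLK2 and KLK4, 0.82 for KLK2 and TMPRSS2, 0.75 for KLK4 and TMPRSS2, 0.53 for KLK2 and KLK3, 0.41 for KLK3 and TMPRSS2, and 0.28 for KLK3 and KLK4. Over the 96 single arrays these values were lower, in the same order 0.82, 0.49, 0.61, -0.02, -0.23 and -0.15. Both genes of a correlation were read on the same arrays, and profiles and the arrays that stand apart move many genes at once.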

How the data were processed

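LAPC4 transcripts were measured on Illumina HT-12 v4 bead arrays. Per the series' design text, the arrays were scanned on an iScan (3.3.28) and processed with GenomeStudio and Partek, and the submitters' processing notes name limma. The deposited values are log2 intensities already normalized by the authors, with array medians of 6.7211 to 6.7212. How background was corrected is not stated there. Arrays have no read depth, so their number limits the precision.

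Of 48107 probes, 30113 had 1 gene symbol, 8 had several and 17986 were not listed. Probes above the array median in at least 3 arrays were kept (43820), with the brightest probe per gene, which left 18571 genes. One limma model (3.58.1, R 4.3.3) fitted all 96 arrays with 30 groups, without a block. Benjamini-Hochberg adjustment was over genes within each comparison with R1881, and over genes and pairs together for the 14 pairs of chemicals. A call is an adjusted p below 0.05. The reduced fit left out 6 arrays and took the array profile as a block. The scripts were tested on simulated data. All members were named. From the related lists, genes that passed for R1881, or else the 2 brightest, were named, and the 3 genes most like each member by Pearson's r. The members, lists, pairs and the 6 arrays left out were chosen with earlier results of these data known. Promoters came from a RefSeq table (GRCh38.p14).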

Additional observations from a re-analysis of the deposited data

How the results depend on the processing

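Over 28 settings the R1881 response of KLK2 stayed between 1.00 and 1.33, that of KLK4 between 0.99 and 1.50 and that of TMPRSS2 between 0.64 and 1.10. The count of members called for R1881 was 2 over all arrays, 0 with same-numbered controls averaged, with controls 1 to 3 only or with controls 1b to 3b only (which have fewer control arrays), 4 in profile A only, 3 (with TMPRSS2) with cyclic loess, array weights, only the arrays compared, without the 6 arrays with or without the profile block and in profile B only, and 2 to 2 with 1 array left out at a time. The 5 combinations of gene and chemical called lower became 10 with cyclic loess, 33 with array weights, 3 with only the arrays compared or with any of the 3 reduced control sets, 15 without the 6 arrays, 25 when the profile was also a block, 9 when adjusted over all comparisons, 34 in profile A only and 1 in profile B only. They were 3 to 8 with 1 array left out. The 1 called higher became 0 under a stricter filter, array weights, only the arrays compared, controls averaged, controls 1 to 3, without the 6 arrays with or without the profile block, adjustment over all comparisons and profile B only, and was 0 to 1 with 1 array left out. The 1 pair became 8 with array weights, 4 in profile A only and 0 with only the arrays compared, without the 6 arrays with or without the profile block, and in profile B only, and was 0 to 3 with 1 array left out. The cause of these changes was not tested.

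KLK3 under Spironolactone turned to -0.11 without the 6 arrays and with the profile as a block and to -0.16 in profile A only. Under Trenbolone, KLK4 turned to 0.15 in profile B only and TMPRSS2 to 0.012 in profile A only. With the replicate block the counts were 2 for R1881, 6 lower, 1 higher and 1 pair. The numbers were not taken to pair the arrays, since in 22 of 29 groups not every same-numbered correlation with R1881 was over 0.1 (range -0.71 to 0.95). Profile as a block, both within-profile settings and the list of 6 arrays were chosen after seeing the data. The use of other probes could not be run because each gene has 1 probe. KLK3 lies near background, which limits what its probe can show.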
